A study of Homo sapiens with 6 samples.

Results

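The genes described here encode the proteins of the mitochondrial ribosome, measured by RNA sequencing in 6 clonal lines of HEK293, an established human embryonic kidney cell line. They were chosen by symbol: MRPL or MRPS followed by a digit, without pseudogene symbols and with at least 60 counts summed over the 6 lines. The pattern matched 155 of 58395 genes, 75 matches were pseudogenes and 1 match, the antisense RNA MRPL23-AS1, had 0 counts. Of the 79 matches kept, 78 encode proteins (49 MRPL and 29 MRPS symbols) and 1 is MRPS30-DT, a noncoding RNA that starts beside MRPS30. The kept match with the fewest counts was MRPS24, with 116, so no gene lay close to the limit. All 79 passed the filter on low counts that preceded the comparison of the lines.

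GST lines 2, 8 and 9 expressed glutathione S-transferase, and NOCT lines 4, 11 and 12 expressed nocturnin, a rhythmically expressed phosphatase related to the CCR4 deadenylases, without residues 2 to 15 (NOCT_del2_15). Both proteins were overexpressed from constructs with the 3F tag, so every line carries a tagged protein and no line without a construct was compared. Each line is 1 clone, and per the labels it was grown for 3 days in 10 cm dishes before total RNA was taken. The p-values below therefore judge the difference between groups against the spread between clones.

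Gene counts per line ranged from 19729745 to 24422406. Construct rows matched the labels, with 46 to 88 GST reads in GST lines against 0 or 1 in NOCT lines, and 46 to 82 NOCT reads in NOCT lines against 3 to 7 in GST lines. Of 8 genes listed as markers of HEK293, 6 reached 1 TPM in every line (TPM, a level scaled for gene length and depth). PAX2 and NEFM did not. The 6 markers of leukocytes, liver, endothelium, blood and muscle summed to between 3 and 12 counts per line and none exceeded 0.158 TPM.

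The mitochondrial ribosome translates the few messenger RNAs of the mitochondrial genome, which encode core subunits of the respiratory chain and of ATP synthase. Its 2 ribosomal RNAs come from the mitochondrial genome, while all of its proteins are encoded in the nucleus, made in the cytosol and imported. Some of the proteins have bacterial homologues and others exist only in mitochondria. A few symbols hide the subunit: MRPS30 and MRPS18A encode proteins of the large subunit, and MRPS36 encodes a component of the 2-oxoglutarate dehydrogenase complex. By structure, 51 of the 78 members therefore belong to the large subunit, 26 to the small subunit and 1 (MRPS36) to neither. The members lie on 21 chromosomes.

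Nuclear genes for mitochondrial proteins are known as targets of ETS-family factors (among them GABP), of YY1 and of NRF1. RefSeq promoter windows on GRCh38.p14 (250 bases before to 50 after the start) matched 69 of the 78 members. The ETS letters CCGGAAG, searched on both strands, stood in 29 of the 69 windows (42.0%), against 10.3% of all 35116 windows and 18.6% of the 10585 windows of coding genes tested here. The YY1 letters AAGATGGCG stood in 13 windows (18.8%), against 1.75% and 3.87%. The NRF1 letters, GCGCA and GCGC with any 1 base between them, stood in 8 windows (11.6%), close to the 11.4% of the coding genes tested. At least one of the 3 motifs stood in 43 windows (62.3%, against 30.1% of the coding genes tested). The ETS letters end in the AAG with which the YY1 letters begin, so these matches can overlap, and a match shows only that the letters are there.

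The ETS windows below belong to 6 members that return in the results, each printed 5′ to 3′ on the strand that holds the motif, with the motif in capitals.
MRPS34: agcggtccggCCGGAAGtcaccggaag
MRPL40: gggcgcacgcCCGGAAGcggcgagggt
MRPL30: tgaccacttcCCGGAAGcgcagcagac
MRPL28: cccaccggaaCCGGAAGccgatctgcc
MRPS12: cggatagcgcCCGGAAGaggctagaag
MRPS31: aggcgccaggCCGGAAGcggaagagag
They lie at chr16:1773137-1773163 (plus strand, opposite to the gene) for MRPS34 and chr22:19432524-19432550 (plus) for MRPL40. The windows of MRPL30 and MRPL28 lie on the strand opposite to the gene, at chr2:99181029-99181055 (minus) and chr16:370515-370541 (plus). Those of MRPS12 and MRPS31 lie at chr19:38930929-38930955 (plus) and chr13:40771206-40771232 (minus). MRPS34 holds 2 further copies in its window.

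The YY1 windows are shown for the same reason, with 2 of the S18 paralogs beside them, and were printed in the same way.
MRPL36: gccaggaaggAAGATGGCGgcgggggggg
MRPL46: gggagaacgaAAGATGGCGgcgcccgtaa
MRPS30: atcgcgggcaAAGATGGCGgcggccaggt
MRPS18A: taggtttttgAAGATGGCGgccctcaagg
MRPS18B: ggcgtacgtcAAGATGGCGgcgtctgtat
MRPL50: gatctcatcgAAGATGGCGgcgcgatctg
Their positions are chr5:1799855-1799883 (plus, opposite to the gene), chr15:88467362-88467390 (minus), chr5:44808950-44808978 (plus), chr6:43687764-43687792 (minus), chr6:30617853-30617881 (plus) and chr9:101398577-101398605 (minus), in the order printed. In 9 of the 12 members examined for position, the YY1 letters stood on the gene's own strand with their middle 10 to 27 bases after the RefSeq start. Matches with fewer than 10 bases between them and an end of the window were not examined for position. Among those examined, no ETS or NRF1 match stood on the gene's own strand after the start. Some ETS matches on the opposite strand did lie after it, such as that of MRPL28, with its middle 10 bases after. The median log2 fold change between NOCT and GST lines was -0.03 for members with ETS letters and -0.10 for those without. It was -0.05 with and -0.07 without YY1 letters, and -0.09 with and -0.06 without NRF1 letters.

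Levels between genes were read from the deposited TPM. The 78 members had a median of 36.9 TPM over the lines, with 40.1 for the large and 34.5 for the small subunit. MRPS34, a mitochondria-specific protein of the small subunit, had the highest level of all members, at 310, 370 and 409 TPM in GST lines 2, 8 and 9 and 346, 274 and 262 TPM in NOCT lines 4, 11 and 12. Next came MRPL37, a mitochondria-specific protein of the large subunit, at 147 to 182 TPM, and its range did not reach that of MRPS34. MRPL51 (111 to 139 TPM), MRPL3 (112 to 129 TPM) and MRPL18 (92.3 to 131 TPM) followed with ranges that overlapped. MRPL3 is the homologue of the bacterial protein that reaches toward the peptidyl transferase centre, and MRPL18 sits in the central protuberance at the top of the large subunit.

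The lowest levels belonged to MRPS24 (0.605 to 1.36 TPM), MRPS28 (1.10 to 2.48 TPM), MRPL38 (2.76 to 3.45 TPM), MRPL23 (2.41 to 4.63 TPM) and MRPL12 (3.90 to 6.11 TPM). MRPL12 is the stalk protein that recruits translation factors, and it stood at a mean of 5.07 TPM beside 43.8 TPM for MRPL10 and 30.3 TPM for MRPL11, the other members of the stalk and its base. The stated counting tool, HTSeq, leaves out reads that fit more than 1 gene in its standard modes, and the mode is not given in the sources used here. In GENCODE 29, 92.2% of the coding bases of MRPS24 lie also in exons of the readthrough gene URGCP-MRPS24 on the same strand, and the share was 96.0% for MRPL12, 94.1% for MRPL38 and 53.0% for MRPS28. MRPL53 and MRPS17 (100% each), MRPL30 (95.3%) and MRPL46 (64.0%) complete the 8 members with at least 50% shared coding bases. These 8 had a median of 5.34 TPM, the other 70 members 42.0 TPM, and 7 of the 8 were among the 10 lowest. The levels of these 8 genes are uncertain for that reason, and how much of the gap in level comes from it was not tested.

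Copies of these genes are spread over the genome. Of the 75 pseudogenes left out, which carry the symbols of 34 members, 55 had 0 counts and 5 had at least 60. The highest was MRPL45P2 with 904 counts beside 5815 for MRPL45, followed by MRPS31P5 with 259 beside 2301 for MRPS31, and MRPL37P1 with 142 beside 18236 for MRPL37. Reads that did not map to a single place made up 13.3% to 14.6% of a file, so reads shared by a member and a copy can be missing from both.

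**Figure D1:**
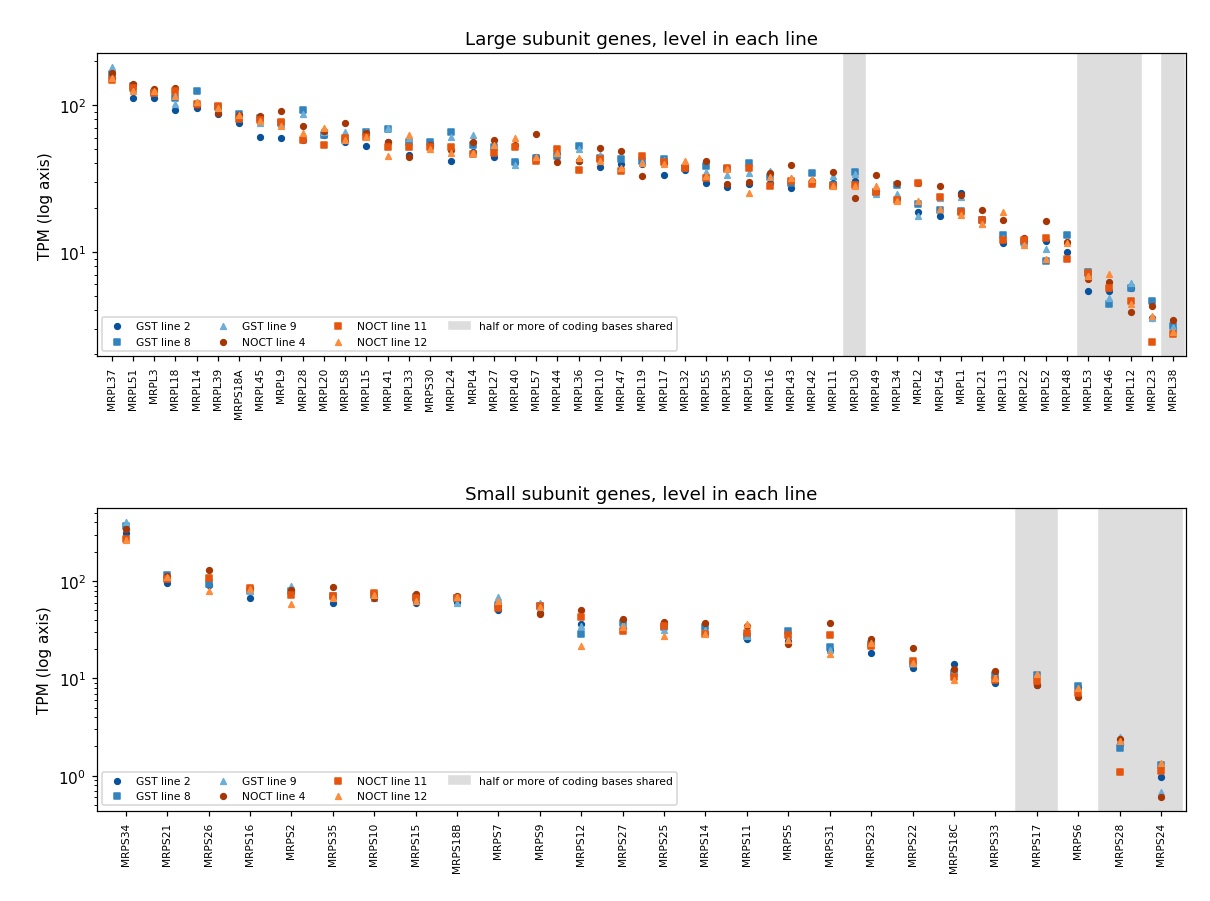
TPM of each member in each line, on a log axis, with large subunit genes above and small subunit genes below, sorted by mean. Grey bands mark genes with at least 50% of coding bases shared with another gene on the same strand; 7 of the 8 stand among the 10 lowest levels.

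In each line the members took between 0.300% and 0.336% of all gene counts. The libraries had been depleted of ribosomal RNA, yet MT-RNR2, the large mitochondrial ribosomal RNA, held 22.6% to 26.6% of gene counts. Summed TPM of the large subunit was 2153, 2493 and 2464 in GST lines 2, 8 and 9 and 2523, 2326 and 2353 in NOCT lines 4, 11 and 12. Summed TPM of the small subunit was 1264, 1423 and 1486 in the GST lines and 1507, 1330 and 1249 in the NOCT lines. The groups overlapped in both sums. The ratio of large to small had a mean of 1.70 ± 0.05 over the GST lines and of 1.77 ± 0.11 over the NOCT lines (SD, 3 lines a group), again with overlap. Such sums lean on a few abundant genes: without the 5 most abundant members of each subunit the ratio was 2.63 ± 0.07 and 2.53 ± 0.09, so the order of the groups turned.

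For comparisons between lines, CPM (counts divided by the library size after TMM scaling) were used. For deviations and SDs, 0.5 was added to CPM before log2, which lowers the spread of genes with few reads. A deviation is a gene's log2 CPM minus its mean over the 6 lines. The members varied little. Their median SD of log2 CPM over the lines was 0.149, against 0.230 for all 17261 genes tested. Between 10 and 200 CPM, 69 members had a median SD of 0.139 and the 9275 genes in that band 0.179. MRPL22 (SD 0.057), MRPS18B (0.059), MRPL51 (0.059) and MRPS18A (0.068) were the steadiest, although MRPL22 was singled out after its values were seen. The 2 S18 paralogs named here sit in different subunits, MRPS18A in the large and MRPS18B in the small, and in both the highest line was at most 1.13-fold above the lowest. The third paralog, MRPS18C, the homologue of bacterial S18, had an SD of 0.224 and ran from 16.5 to 25.5 CPM.

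The largest spreads were in MRPS12, MRPS31, MRPS24, MRPS28 and MRPL52. MRPS12, the homologue of the bacterial decoding-centre protein S12, had 29.2, 21.1 and 26.5 CPM in GST lines 2, 8 and 9 and 34.8, 31.1 and 16.5 CPM in NOCT lines 4, 11 and 12. NOCT lines held both its highest and its lowest value, with an SD of log2 CPM of 0.389. MRPS31, a mitochondria-specific protein of the small subunit, had 15.4, 15.5 and 15.0 CPM in the GST lines and 25.8, 20.2 and 13.3 CPM in the NOCT lines. The 3 GST lines agreed closely for MRPS31, while the NOCT lines stood on both sides of them. MRPS24 and MRPS28 rested on 13 to 25 and 15 to 36 reads per line, so their values are coarse. Their place among the largest spreads can depend on the 0.5 added to CPM.

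The main question of the design is whether lines with NOCT_del2_15 differ from GST lines. No member reached the threshold of 0.05 for the adjusted p from edgeR's quasi-likelihood fit, which 10 of the 17261 genes tested did (0.0579%). DESeq2 also called 0 members, where it called 2.94% of the genes, but it gave no adjusted p for MRPS24. The authors' deposited table called 0 of the 78 as well, against 2.87% of its genes, and its lowest adjusted p among them was 0.0978 for MRPL41. At an unadjusted edgeR p under 0.05, 8 of the 78 were found (10.3%), 2 higher and 6 lower in NOCT lines, against 13.9% of all genes (7.38% higher and 6.52% lower). That share is below the background. Without GST line 9, only MRPL41 had an unadjusted p under 0.05 among the members, against 8.31% of the genes then tested. All 8 kept their sign in that fit, with log2 fold changes such as 0.35 for MRPL40, -0.38 for MRPL30 and -0.23 for MRPS2. With 1 GST line fewer, the loss of a line and the values of that line cannot be told apart. The split of 2 higher and 6 lower depended on the scale, with 10 higher and 1 lower relative to spike-in totals and 4 higher and 3 lower in limma on log2(TPM + 1). At an unadjusted p under 0.05 these fits called 20.4% and 14.2% of all genes, respectively. Every library took the same mass of RNA (5 µg), so a value is a share of that RNA, and in bulk samples the number of cells with a given RNA and its amount per cell cannot be told apart.

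Fold changes were small. The median was -0.06 (log2, NOCT over GST) against 0.00 over all genes, and the range ran from -0.51 for MRPL12 to 0.40 for MRPL2. The median size of the change was 0.11 for members and 0.20 for all genes. Below 0 stood 55 of the 78, against 49.3% of all genes, but 22 relative to spike-in totals and 34 in limma on log2(TPM + 1). By class the 55 were 26 of 30 large subunit proteins with bacterial homologues, 12 of 21 mitochondria-specific large subunit proteins, 13 of 16 small subunit proteins with bacterial homologues and 4 of 10 mitochondria-specific small subunit proteins. Median deviations of the members were -0.03, 0.02 and 0.08 in GST lines 2, 8 and 9 and 0.00, -0.08 and -0.01 in NOCT lines 4, 11 and 12. GST line 9 was highest and NOCT line 11 lowest, and the groups overlapped. Relative to spike-in totals the members' median was 0.088 and that of all genes 0.15, so the members again lay 0.06 below the median gene.

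**Figure D2:**
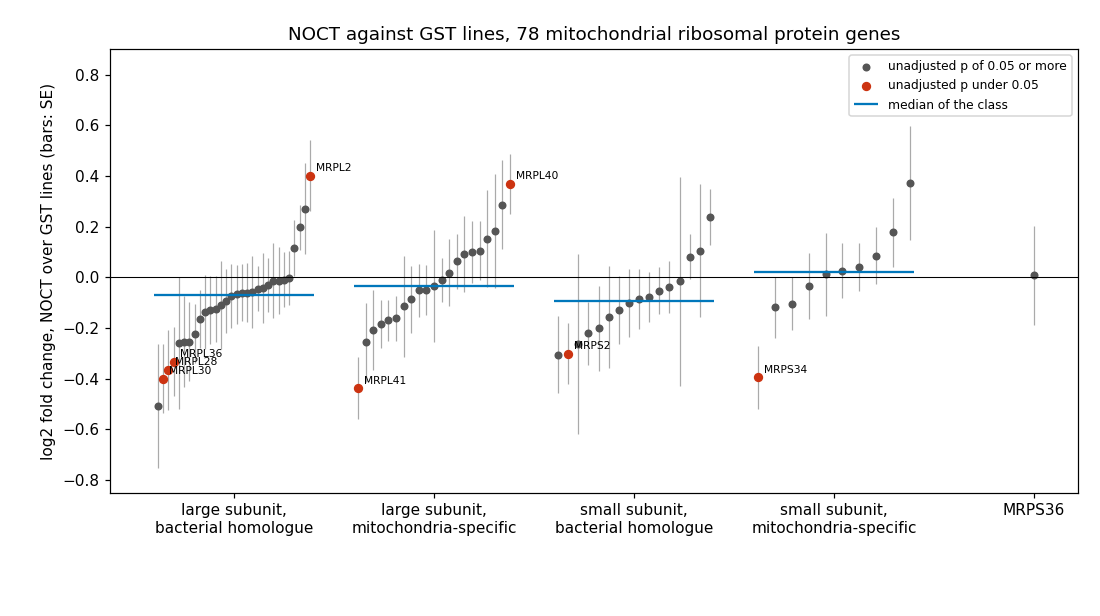
Log2 fold change of each member, NOCT over GST lines, with its standard error as a bar, by subunit and by whether the protein has a bacterial homologue. Red points mark the 8 members with an unadjusted edgeR p under 0.05, blue lines the class medians; none had an adjusted p under 0.05.

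Groups did not overlap for 13 members (16.7%), 4 higher and 9 lower in NOCT lines, against 20.0% of all genes (10.5% higher and 9.54% lower). Among the higher ones, MRPL40, a mitochondria-specific protein of the central protuberance, had 30.0, 27.5 and 27.6 CPM in GST lines 2, 8 and 9 and 34.0, 34.5 and 41.5 CPM in NOCT lines 4, 11 and 12. All 3 NOCT lines were above all GST lines, and NOCT line 12 was highest. Its log2 fold change was 0.37 ± 0.12 (SE), with an adjusted p of 0.243 in edgeR. MRPL2, whose bacterial homologue lies beside the peptidyl transferase centre, had 17.6, 18.6 and 16.0 CPM in GST lines and 24.1, 25.0 and 19.9 CPM in NOCT lines. Here NOCT lines 4 and 11 were high and NOCT line 12 came close to the GST lines (0.40 ± 0.14, edgeR adjusted p 0.264). MRPL18 had 47.3, 52.5 and 50.2 CPM in GST lines and 58.0, 57.6 and 56.4 CPM in NOCT lines, with little spread in the latter (0.20 ± 0.09). MRPS11, a protein of the small subunit platform, had 53.2, 53.2 and 54.9 CPM in GST lines and 62.7, 56.0 and 71.8 CPM in NOCT lines. Its edgeR adjusted p was 0.381, and that of MRPL18 was 0.372.

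Of the 9 lower ones, MRPL41, a mitochondria-specific protein of the large subunit, had the smallest p of all members. It had 26.3, 30.0 and 31.6 CPM in GST lines 2, 8 and 9 and 22.7, 22.1 and 20.1 CPM in NOCT lines 4, 11 and 12. Every NOCT line was below every GST line, by a log2 fold change of -0.44 ± 0.12 with an edgeR adjusted p of 0.204. MRPS34 had 127, 140 and 162 CPM in GST lines and 123, 101 and 102 CPM in NOCT lines, so that NOCT line 4 nearly met GST line 2 (-0.39 ± 0.12, edgeR adjusted p 0.233). MRPL30, the homologue of bacterial L30, had 32.9, 35.0 and 35.6 CPM in GST lines and 21.7, 28.1 and 28.8 CPM in NOCT lines. NOCT line 4 was the lowest for MRPL30 (-0.40 ± 0.13, edgeR adjusted p 0.258), one of the genes with shared coding bases.

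MRPS2, the homologue of bacterial S2, had 70.2, 67.1 and 79.9 CPM in GST lines and 64.7, 60.5 and 50.9 CPM in NOCT lines, lowest in NOCT line 12 (-0.30 ± 0.12, edgeR adjusted p 0.318). MRPL36, the homologue of a small protein of the bacterial large subunit, had 21.7, 25.2 and 25.2 CPM in GST lines and 18.9, 17.0 and 21.3 CPM in NOCT lines. For MRPL36 the gap between GST line 2 and NOCT line 12 was small (-0.33 ± 0.14, edgeR adjusted p 0.334). MRPL12 had 2.17, 2.00 and 2.26 CPM in GST lines and 1.30, 1.62 and 1.61 CPM in NOCT lines, from 32 to 46 reads per line, and its -0.51 ± 0.24 had an edgeR adjusted p of 0.402. The remaining lower members were MRPL37 (-0.18), MRPL42 (-0.16) and MRPS30 (-0.17), of which MRPL42 and MRPS30 are named because their groups did not overlap. MRPS30 had 128, 118 and 119 CPM in GST lines and 107, 108 and 109 CPM in NOCT lines, the tightest NOCT values of these 3. The noncoding MRPS30-DT beside it had 1.49 to 2.85 CPM in GST lines and 1.26 to 2.08 CPM in NOCT lines, with overlap.

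MRPL28 had an unadjusted p under 0.05 although its groups overlapped. It had 52.1, 76.2 and 74.7 CPM in GST lines 2, 8 and 9 and 56.0, 46.8 and 54.9 CPM in NOCT lines 4, 11 and 12. GST line 2 lay among the NOCT lines (-0.36 ± 0.16, edgeR adjusted p 0.356). MRPS31 (0.37 ± 0.22, edgeR adjusted p 0.499) and MRPL46 (0.29 ± 0.18, edgeR adjusted p 0.505) were the next genes above 0, both with overlap. The fold change of MRPS31 was 0.59 without NOCT line 12 and 0.13 without NOCT line 4. In the stalk, MRPL10 had 39.1, 41.5 and 45.7 CPM in GST lines and 45.6, 39.8 and 40.7 CPM in NOCT lines, a fold change of 0.00 ± 0.11. MRPL11 (-0.07 ± 0.13) and MRPS36 (0.01 ± 0.20) were also near 0. Of the 5 central protuberance genes, MRPL18, MRPL40 and MRPL46 were above 0 and MRPL38 (-0.11) and MRPL48 (-0.21) below. The 50 members not named by rule had fold changes between -0.26 and 0.27, of which 37 were below 0, and mean levels of 6.72 to 108 TPM.

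**Figure D3:**
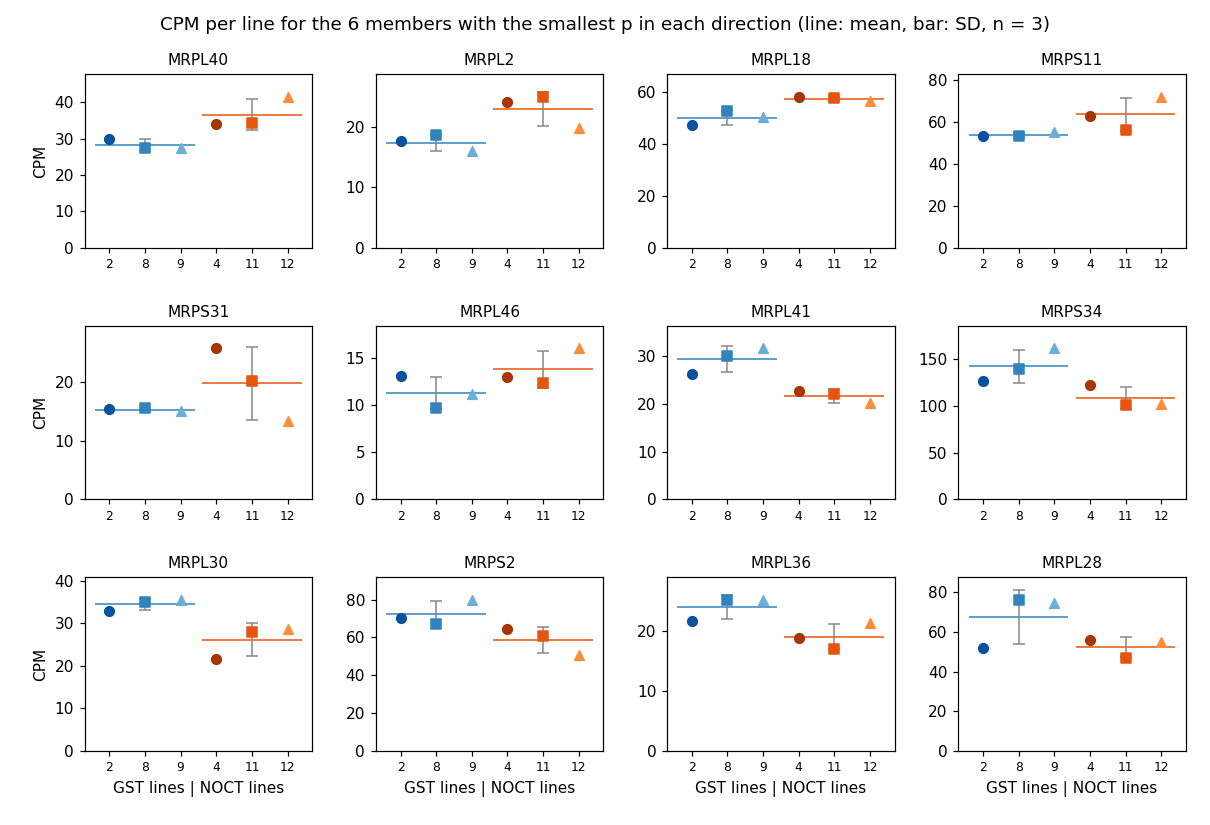
CPM in each line for the 6 members with the smallest p above 0 (MRPL40 to MRPL46) and the 6 below 0 (MRPL41 to MRPL28), with group means as lines and SDs as bars (n = 3). Groups do not overlap for MRPL40, MRPL2, MRPL18, MRPS11, MRPL41, MRPS34, MRPL30, MRPS2 and MRPL36.

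To see whether members moved with the genes around them, each was set beside its neighbours on the chromosome. For each line the median deviation of up to 50 tested genes on each side with at least 1 CPM was taken. Over 468 points (78 members in 6 lines) the deviation of a member and that of its neighbours had a Pearson r of 0.66 and a Spearman rho of 0.55. The same Pearson r over 14912 genes was 0.38. Those genes were not matched to the members in level. Between 10 and 200 CPM lay 69 of the 78 members, but only 9275 of all genes tested. The gap between 0.66 and 0.38 is therefore not shown to be particular to the members. Points of 1 line share a library, and members close to each other share neighbours, so these correlations are descriptions. Between groups, the fold change of a member and the difference of its neighbours had a Pearson r of 0.64 and a Spearman rho of 0.58 over the 78 members. Of 9 members whose neighbours differed by at least 0.2 between groups, all 9 had a fold change of the same sign as their neighbours. None of these between-group values was computed over all genes, so none is shown to be particular to the members. Why neighbours moved together was not tested.

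**Figure D4:**
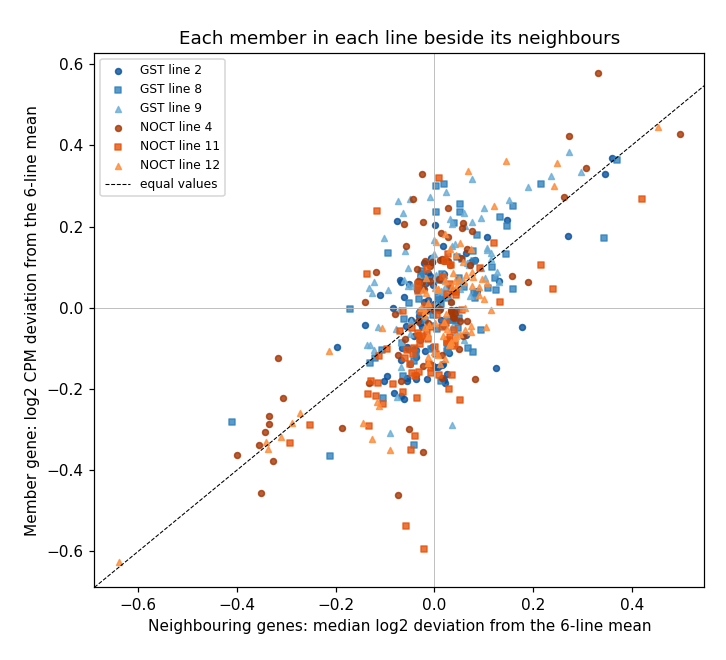
Log2 CPM deviation of each of the 78 members in each of the 6 lines against the median deviation of its neighbouring genes, with the line of equal values dashed. MRPS12 lies near the dashed line at the lower left (NOCT line 12), while other points lie off it, such as MRPS31 in NOCT line 4 (0.58 beside 0.33) and MRPS26 in NOCT line 11 (0.05 beside 0.24).

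Members on some chromosomes had deviations close to those of their neighbours, and members on others did not. On chromosome 2, 7 of the 8 members had their lowest value in NOCT line 4, with a median deviation of -0.32 where that of the neighbours was -0.34. They include MRPL30 (-0.46), MRPL19 (-0.38), MRPS5 (-0.34) and MRPS9 (-0.29), genes that lie at chr2:99181079-99197626, chr2:75646783-75690851, chr2:95087207-95149434 and chr2:105037983-105099960. On chromosome 9 all 3 members, MRPL41, MRPS2 and MRPL50, were lowest in NOCT line 12, with a median of -0.33 beside -0.34 for the neighbours. On chromosome 16, MRPL28 (chr16:366969-371289) and MRPS34 (chr16:1771890-1773155) had medians of 0.27 and 0.36 in GST lines 8 and 9 and -0.31 in NOCT line 11, beside 0.36, 0.28 and -0.27 for the neighbours. These blocks were picked after the values were seen. They hold 5 of the 6 genes that were lower at an unadjusted p under 0.05, which the choice itself can bring about.

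MRPS12 on chromosome 19 (chr19:38930548-38933162) had deviations of 0.43, 0.27 and -0.63 in NOCT lines 4, 11 and 12, and its neighbours had 0.50, 0.42 and -0.64. On chromosome 4, MRPL1 and MRPS18C were both highest in GST line 2, at 0.33 and 0.37, beside 0.34 and 0.36 for their neighbours. MRPS31 and MRPL57 on chromosome 13 were both highest in NOCT line 4, at 0.58 and 0.34, beside 0.33 and 0.31. MRPS11 and MRPL46 on chromosome 15 start 34 bases apart on opposite strands in GENCODE 29, and both were highest in NOCT line 12, at 0.30 and 0.36, beside 0.24 and 0.25. In NOCT line 11, however, MRPS31 stood at 0.24 where its neighbours stood at -0.12.

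On 3 chromosomes with many members, most members shared their lowest or highest line while their neighbours were closer to 0. On chromosome 1, 5 of the 8 members were lowest in NOCT line 11, with a median deviation of -0.13 beside 0.00 for the neighbours. On chromosome 11, 5 of 7 were lowest in that line, at -0.14 beside -0.05. On chromosome 17, 5 of 8 were highest in GST line 9, at 0.12 beside 0.04. These are also the lines in which the median over all members was lowest and highest. The 3 chromosomes were chosen after these values were seen. A coding gene starting on the opposite strand within 1000 bases was found for 17 of the 78 (21.8%), against 9.49% of 13417 coding genes tested.

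With the neighbours' deviation taken out of each line, the median SD of the members was 0.116 in place of 0.149, and it was smaller for 56 of the 78. The same change in SD was not computed over all genes. Several members of these blocks had fold changes closer to 0: MRPL41 went from -0.44 to -0.11, MRPS34 from -0.39 to -0.07, MRPS2 from -0.30 to -0.02, MRPL28 from -0.36 to 0.03 and MRPS18C from -0.30 to -0.04. MRPS12 did not, and its fold change was 0.11 before and -0.14 with the offset. MRPL40 on chromosome 22 went from 0.37 to 0.11. Other members kept most of theirs, with MRPL2 at 0.36, MRPL36 at -0.30 and MRPL30 at -0.23. MRPL37 (-0.25) and MRPS30 (-0.21) were slightly farther from 0 than before. At an unadjusted p under 0.05, 7 members were found in this fit, against 14.5% of all genes, and 3 of them (MRPL2, MRPL30 and MRPL36) were among the 8 of the fit without the offset. The other 4 were MRPL14, MRPL37, MRPS30 and MRPS26, whose fold change was 0.01 before and -0.25 with the offset. MRPS26 itself had 38.1, 36.0 and 44.3 CPM in GST lines and 47.6, 40.6 and 31.3 CPM in NOCT lines, with overlap. The adjusted p of every member stayed above 0.05 in this fit too, with a lowest value of 0.203 for MRPS30 in edgeR.

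Genes that work with the mitochondrial ribosome were read from the same fit. None of the 5 subunit genes without an MRP symbol, 22 assembly factors, 14 translation factors, 17 mitochondrial aminoacyl-tRNA synthetases, 7 genes of mitochondrial transcription or 2 mitochondrial ribosomal RNAs had an adjusted p under 0.05 by edgeR, while DESeq2 called 1 of them, MRRF (0.0579% and 2.94% of all genes were called by these tools). At an unadjusted p under 0.05 they held 1 higher gene, the assembly factor YBEY (0.43), and 1 lower gene, MRRF, against 13.9% of all genes. MRRF, which recycles the ribosome after translation, had 53.1, 56.0 and 55.8 CPM in GST lines and 34.0, 43.9 and 39.0 CPM in NOCT lines (-0.50 ± 0.12), with an adjusted p of 0.161 in edgeR and 0.018 in DESeq2. It lies on chromosome 9, and with the neighbour offset its fold change was -0.17. MT-RNR1, the small mitochondrial ribosomal RNA, had 14021, 10542 and 10051 CPM in GST lines and 9422, 9935 and 9774 CPM in NOCT lines. Its log2 fold change was -0.25 ± 0.14 (edgeR adjusted p 0.453). The CPM of MT-RNR1 were separate between groups, like those of 20.0% of all genes, but this depended on the TMM scaling. As a share of unscaled gene counts, GST line 9 (0.988%) fell below NOCT line 11 (1.007%). GST line 2 stood well above the other lines. MT-RNR2 had a mean of 260181 CPM in GST lines and 237315 CPM in NOCT lines. The libraries were depleted of ribosomal RNA, and how far depletion set the values of either RNA was not tested.

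Without the neighbour offset, none of 9 candidate regulators of these genes had an adjusted p under 0.05 by edgeR, and 8 were below 0. At an unadjusted p under 0.05, 3 of the 9 were found (MYC and PPARGC1B lower, YY1 higher), against 13.9% of all genes. MYC, a transcription factor known to raise genes of ribosome and mitochondrial biogenesis, had 53.6, 42.5 and 52.7 CPM in GST lines and 14.1, 12.2 and 32.1 CPM in NOCT lines. All NOCT lines were below all GST lines, by a log2 fold change of -1.35 ± 0.34. The adjusted p of MYC was 0.184 in edgeR and 0.00195 in DESeq2, and its fold change with the neighbour offset was -1.63. PPARGC1B, a coactivator of mitochondrial biogenesis, had 28.9, 26.8 and 30.6 CPM in GST lines and 20.8, 18.8 and 24.1 CPM in NOCT lines. Its groups also did not overlap (-0.44 ± 0.13, edgeR adjusted p 0.223), and with the neighbour offset its fold change was -0.44. YY1, whose letters were searched above, had 165, 120 and 137 CPM in GST lines and 177, 160 and 187 CPM in NOCT lines, with an edgeR adjusted p of 0.335, and its fold change of 0.32 was 0.12 with the neighbour offset.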

How the data were processed

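The authors deposited whole-number counts per gene for each line, made per the submitters' processing notes with tools that include cutadapt 1.8.1, Trimmomatic 0.33, STAR 2.5.2b and HTSeq 0.6.1p1 on GRCh38; the annotation release is not given in the sources used here. They also deposited TPM per gene, and a DESeq2 1.16.1 table with a mean normalised count (a signal over the 6 lines), log2 fold changes, a test statistic (a score) and p-values, per the file headers. Libraries were strand-specific, depleted of ribosomal RNA and read over 50 bases, per the labels.

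Counts were tested with edgeR 4.0.16 in R 4.3.3 (filterByExpr, TMM, quasi-likelihood test, group as the only term) over 17261 genes, with Benjamini-Hochberg adjustment and a threshold of 0.05. Rows naming no gene (42.9% to 47.1% of reads) were left out. Gene positions came from GENCODE 29 and promoter sequences from RefSeq. Genes were named by rule: the 6 members with the smallest p in each direction, the 5 highest and 5 lowest by TPM, the 5 with the largest spread, the S18 paralogs, the stalk genes, MRPS36, the matches at the count limit, and at most 3 genes of each other list. Alternatives were DESeq2 1.42.0, DESeq2 size factors, spike-in totals, no filter, limma 3.58.1 on log2(TPM + 1) and log2(TPM + 0.1), the neighbour offset and leaving out each line. The fit was tested on simulated data. The members and lists were chosen with earlier results of these data known.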

Additional observations from a re-analysis of the deposited data

How the results depend on the processing

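No member had an adjusted p under 0.05 by edgeR, DESeq2 or limma in any of the 13 alternatives, although DESeq2 gave none for MRPS24. The lowest adjusted p among the named members was 0.0602, for MRPS31 in edgeR without NOCT line 12. The count at an unadjusted p under 0.05 was 8 of 78, against 13.9% of all genes. It was 7 to 11 in the other fits of all 6 lines, against 10.7% (no filter) to 20.4% (spike-in totals) of all genes. When 1 line was left out and fewer lines were fitted, it was 1 (without GST line 9) to 10 (without NOCT line 12). The shares of all genes in those fits were 8.31% and 23.2%. The members' median log2 fold change of -0.058 was 0.088 with spike-in totals, 0.025 on log2(TPM + 1) and 0.029 on log2(TPM + 0.1), where the median of all genes was 0.15, 0.072 and 0.084, so relative to all genes it was -0.063, -0.047 and -0.055. The log2 change of the summed large subunit was 0.018 in TPM and -0.079 in CPM, and that of the ratio of large to small was 0.053, or -0.053 without the 5 most abundant members of each subunit.

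Of 364 values (28 named members, 13 settings), 42 changed sign, over 13 members. The cause was not tested, apart from the shift of all genes given above. With spike-in totals the values that turned were 0.14 for MRPL51, 0.10 for MRPL3, 0.13 for MRPS24, 0.031 for MRPL38, 0.15 for MRPL10, 0.073 for MRPL11 and 0.10 for MRPS18A. On log2(TPM + 1) they were 0.078 for MRPL51, 0.043 for MRPL3, 0.026 for MRPS24, 0.083 for MRPL10, 0.013 for MRPL11 and 0.035 for MRPS18A, and on log2(TPM + 0.1) 0.078 for MRPL51, 0.043 for MRPL3, 0.034 for MRPS24, 0.084 for MRPL10, 0.013 for MRPL11 and 0.035 for MRPS18A. With the neighbour offset they were 0.029 for MRPL28, 0.0042 for MRPS24, -0.14 for MRPS12, -0.036 for MRPS18B and -0.058 for MRPS36. MRPS36 was -0.00030 with DESeq2 size factors and -0.00082 without a filter. Leaving out 1 line gave -0.071 to 0.060 for MRPL10, -0.080 to 0.0084 for MRPL3, -0.063 to 0.012 for MRPL51, -0.016 to 0.35 for MRPL52, -0.11 to 0.36 for MRPS12, -0.31 to 0.28 for MRPS24, -0.43 to 0.012 for MRPS28 and -0.11 to 0.17 for MRPS36.

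No paired analysis was possible because the GST and NOCT lines share no replicate numbers. MRPS24, MRPS28 and MRPL12 are limited by their few reads, and 3 clones a group limit every comparison.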
